A study of Homo sapiens with 9 samples.

Results

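The genes described here are interferon-stimulated genes, measured in HNT34 cells, a human acute myeloid leukemia (AML) cell line with high expression of EVI1, after shRNA against EVI1. A list of 40 such genes was given by name, and earlier results of these data were known when it was chosen. Of these, 35 were found by symbol among the 16612 genes of the counts table, and all 35 were among the 16312 genes kept by the filter on low counts. GBP1, IFI27, MX2, XAF1 and HERC5 were not analysed here. The cells carried a lentiviral vector with a non-targeting shRNA (NT), with EVI1 shRNA #16 (sh#16) or with EVI1 shRNA #87 (sh#87), and RNA was taken 3 days after selection for the vector. Each group has 3 libraries, so that both shRNAs together give 6 knockdown libraries against 3 NT libraries. Pooled tests, and SDs over the 6 knockdown libraries, treat these as 1 group, though levels can differ between the shRNAs. One field of the sample labels gives the sh#87 libraries the number 18, and they were grouped by their titles. All libraries come from 1 cell line, the labels do not say whether the 3 libraries of a group were separate cultures, and p-values therefore measure the spread between libraries, which may be technical.

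Type I interferons bind the receptor pair IFNAR1 and IFNAR2, whose kinases JAK1 and TYK2 phosphorylate STAT2. Phosphorylated STAT2 joins IRF9 in the complex ISGF3, which binds the interferon-stimulated response element (ISRE) in promoters of antiviral genes, while GAS is the element of the response to interferon-gamma. The products of these genes sense viral RNA, block translation, degrade RNA or modify proteins with ISG15, and several of them are present at a basal level in blood cells that have met no virus.

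Promoter sequences from RefSeq (GRCh38.p14, 250 bases before to 50 after each start) were found for 27 of the 35 genes. They were searched on both strands for the ISRE, as GAAA followed after any 2 bases by GAAA, and for GAS, as TTC followed after any 3 bases by GAA. At least 1 ISRE match was held by 18 of the 27 genes (66.7%), against 3.57% of all 35116 promoters, and at least 1 GAS match by 7 of the 27 (25.9%), against 7.66%. A gene may have several promoter entries and was counted once, if any of them held a match. The shares of all promoters count each entry. Among promoter entries of genes in the counts table these shares were 3.03% (ISRE) and 6.26% (GAS). The windows below, 5′ to 3′ on the strand of the gene, with the ISRE match (or its reverse complement) in capitals, are shown because they stand before genes that fell, genes that rose and genes that did not pass the test. The first 8 belong to genes lower in the knockdown libraries, the next 3 to genes higher in them, and the last 2 to genes that were not called.
IFIH1, chr2:162318686-162318715, minus strand: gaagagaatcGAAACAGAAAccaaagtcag
EIF2AK2, chr2:37156967-37156996, minus strand: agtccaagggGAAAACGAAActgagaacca
OAS3, chr12:112938452-112938481, plus strand: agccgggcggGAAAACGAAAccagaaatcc
IFIT3, chr10:89332468-89332497, plus strand: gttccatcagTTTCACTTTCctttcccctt
PARP9, chr3:122564322-122564351, minus strand: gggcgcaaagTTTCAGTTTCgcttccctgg
DTX3L, chr3:122564322-122564351, plus strand: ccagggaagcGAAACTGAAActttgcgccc
PARP14, chr3:122680800-122680829, plus strand: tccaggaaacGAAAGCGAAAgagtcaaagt
IFI44L, chr1:78620365-78620394, plus strand: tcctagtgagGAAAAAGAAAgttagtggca
ISG15, chr1:1013380-1013409, plus strand: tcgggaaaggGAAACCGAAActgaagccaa
ISG20, chr15:88638937-88638966, plus strand: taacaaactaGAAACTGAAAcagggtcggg
IFI6, chr1:27672288-27672317, minus strand: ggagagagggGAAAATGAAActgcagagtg
IFIT1, chr10:89392510-89392539, plus strand: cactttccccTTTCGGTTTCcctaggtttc
BST2, chr19:17405741-17405770, minus strand: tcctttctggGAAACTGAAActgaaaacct
PARP9 and DTX3L start close to each other on opposite strands, and the same 30 bases lie in both promoters. The ISRE was held by 10 of the 16 genes that fell and have a promoter entry, by 3 of the 4 that rose and by 5 of the 7 that were not called. A match is a description of the letters and shows no binding, and genes that fell, rose or did not pass the test all had promoters with and without it.

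The libraries held between 17096170 and 43502389 estimated counts. Levels are given as CPM, the usual scaling of counts to the (TMM-normalized) library size, and are not divided by gene length, so that they compare libraries and not genes. MECOM, the gene that encodes EVI1, was checked first. Its level was 571, 504 and 440 CPM in NT, 145, 143 and 145 CPM with sh#16 and 109, 107 and 106 CPM with sh#87. Every knockdown library was below every NT library, with a log2 fold change of -2.004 for both shRNAs (SE 0.14, edgeR adjusted p = 9.18e-07; exact two-sided permutation test over libraries, p = 0.0119, the smallest that 6 against 3 libraries allow). The NT libraries stood apart from each other. Mitochondrially encoded genes took 15.9%, 11.5% and 4.69% of the counts in NT replicates 1, 2 and 3, 2.69% to 2.88% with sh#16 and 4.62% to 5.97% with sh#87. Of the myeloid and progenitor markers, 4 of 6 tested fell (PTPRC, CD34, KIT and SPI1), where 17.1% of all genes were called lower. CD33 (log2 fold change -0.22) and ANPEP (-0.35, with 0.07 for sh#16 and -0.96 for sh#87) were not called. The list summed to 2005 to 2121 CPM in NT, mostly PTPRC and CD34 (means of 855 and 731 CPM). It summed to 629 to 637 CPM with sh#16 and 352 to 357 CPM with sh#87. The T cell markers summed to 7.27 to 10.1 CPM in NT and 3.36 to 6.46 CPM in the knockdown libraries, with 1 of 2 tested lower (CD3E) and 1 higher (CD3G). The B cell markers summed to 13.7 to 40.2 CPM in NT and 1.02 to 3.83 CPM in the knockdown libraries, with the 1 gene tested lower (CD79A). Of 5 epithelial and fibroblast markers only COL1A1 was tested, and it was between 0.0433 and 0.172 CPM in NT and between 25.9 and 30.3 CPM in the knockdown libraries. The part of these differences in the results below was not tested. In bulk RNA, fewer cells of a type and less RNA per cell cannot be told apart.

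Most of the interferon-stimulated genes were lower after EVI1 knockdown, and a small set was higher. Together the 35 genes took 0.151% to 0.157% of the counts in NT libraries, 0.0812% to 0.0833% with sh#16 and 0.0643% to 0.0669% with sh#87. Genes were called where the change was at least 2-fold (a log2 value of 1 or more in either direction) with an adjusted p no higher than 0.01. With both shRNAs against NT, 20 of 35 genes were called lower, while 17.1% of all genes tested were called lower, and 5 of 35 were called higher, while 21.0% of all genes were. The median log2 fold change was -1.37 over the 35 genes and 0.05 over all genes tested. The genes that fell were IRF9, IFIH1, EIF2AK2, OAS1, OAS2, OAS3, IFIT2, IFIT3, TRIM22, SAMD9, SAMD9L, HERC6, USP18, PARP9, PARP14, DTX3L, IFI16, IFI35, IFI44 and IFI44L. STAT2, OASL, ISG20, ISG15 and IFI6 rose. At a 4-fold change (log2 of 2), 9 genes were called lower, against 5.66% of all genes, and 2 were called higher, against 9.74%. All 6 knockdown libraries lay below all 3 NT libraries for 25 of the 35 genes, against 32.1% of all genes tested, and above them for 5, against 33.9%.

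**Figure D1:**
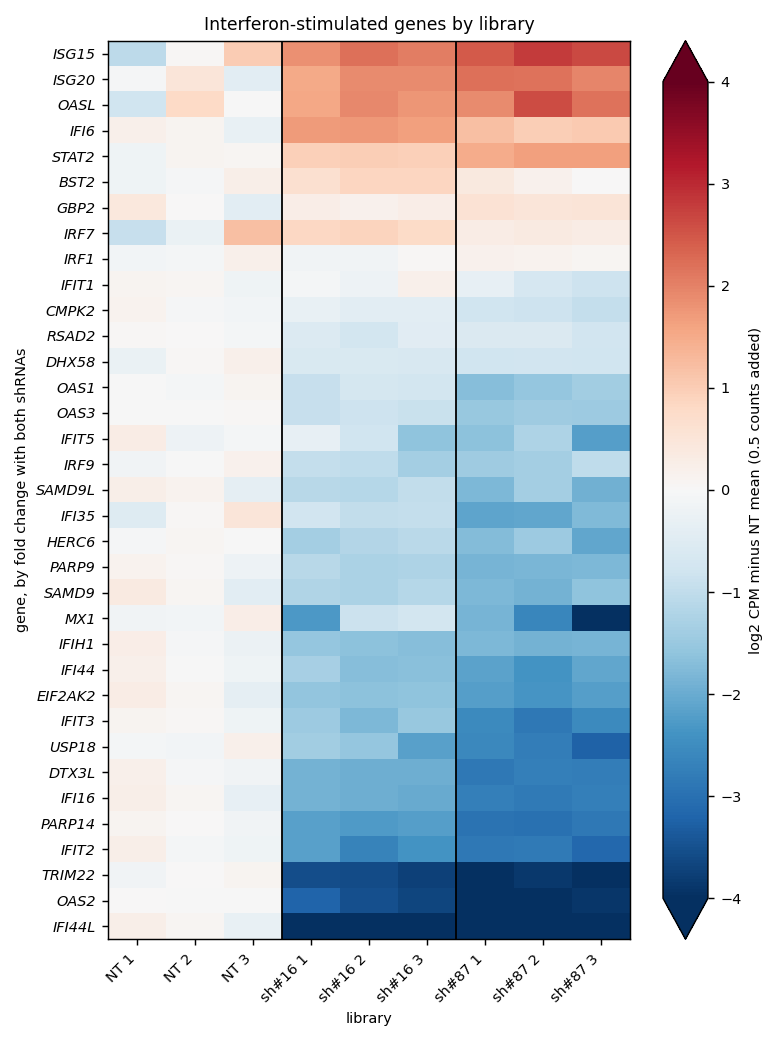
Levels of the interferon-stimulated genes in each library, as the difference in log2 CPM (0.5 counts added) from the mean of the NT libraries, with 1 row per gene and 1 column per library. The 20 genes called lower with both shRNAs and the 5 called higher each kept their direction in all 6 knockdown libraries.

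The comparison of each shRNA with the same NT libraries gave 17 genes lower with sh#16 (15.5% of all genes were called lower) and 4 higher (18.5%). With sh#87, 22 were lower (19.9% of all genes) and 5 higher (23.9%). The comparisons share the NT libraries and are not independent. At a 4-fold change, 5 genes were lower (4.84% of all genes) and 0 higher (7.95%) with sh#16 by edgeR, and 13 were lower (7.14%) and 3 higher (11.7%) with sh#87. Called in both at the 2-fold threshold were 17 lower and 4 higher genes. The share of all genes called in both was not counted. OAS1, OAS3, IFI35 and STAT2 were called with sh#87 and had smaller log2 fold changes with sh#16, of -0.79, -0.88, -0.97 and 0.96. IFIT5 and MX1 were called lower with sh#87 and not with both shRNAs pooled. The IFIT5 call with sh#87 was lost without NT replicate 1, sh#87 replicate 1 or sh#87 replicate 3, and that of MX1 without sh#87 replicate 2. With sh#16, the call of OASL was lost without NT replicate 1, NT replicate 3 or sh#16 replicate 2, that of ISG15 without NT replicate 2 or sh#16 replicate 2, and that of IRF9 without sh#16 replicate 3. The sh#87 value of IFI6 was 0.91 without NT replicate 3. Pooled over both shRNAs, IFIT5 was called lower without sh#16 replicate 1 and MX1 without sh#16 replicate 2. STAT2 was called with sh#16 without NT replicate 2 (1.02), and IFI35 without NT replicate 1 (-1.21). The log2 fold change of MX1 with sh#87 moved from -2.84 to -3.70 without sh#87 replicate 1. MX1 stood at 4, 2 and 0 counts in the sh#87 libraries, so its fold changes rest on few counts.

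**Figure D2:**
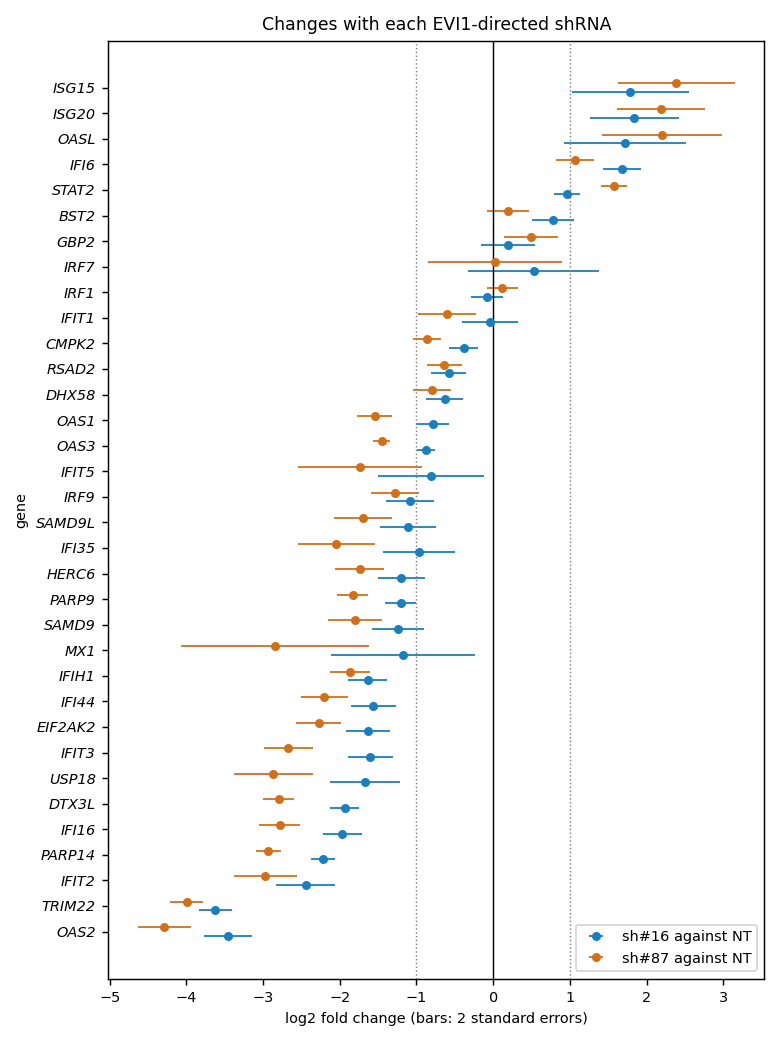
Log2 fold change against NT of 34 interferon-stimulated genes (IFI44L, at 0 counts in the knockdown libraries, is left out), with sh#16 and sh#87 as separate points and bars of 2 standard errors. The genes called lower lie left of 0 with both shRNAs, and STAT2, OASL, ISG20, ISG15 and IFI6 lie right of it.

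None of the 5 interferon receptor genes tested was called by edgeR, where 17.1% of all genes were called lower and 21.0% higher. Their log2 fold changes ran from -0.47 to 0.47, with an unadjusted edgeR p under 0.05 for 3 of them (IFNAR2, IFNGR2 and IL10RB). IFNAR1, the first chain of the type I receptor, was at 58.0, 55.2 and 56.9 CPM in NT, 59.0, 56.9 and 61.6 CPM with sh#16 and 49.3, 48.1 and 50.2 CPM with sh#87. The sh#87 libraries were the lowest, and the knockdown and NT ranges overlapped (log2 fold change -0.07, SE 0.10, adjusted p = 0.57), with a value of 0.045 under upper-quartile normalization. IFNAR2, its partner chain, was at 46.1, 48.6 and 51.7 CPM in NT, 64.9, 62.7 and 60.4 CPM with sh#16 and 57.3, 51.1 and 56.5 CPM with sh#87, a log2 fold change of 0.27 (SE 0.09, adjusted p = 0.0242). The genes of the interferon ligands were not analysed here.

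JAK1, the kinase bound to IFNAR2, was at 355, 328 and 323 CPM in NT, 340, 329 and 328 CPM with sh#16 and 331, 325 and 342 CPM with sh#87. Its groups overlapped, and the log2 fold change was -0.01 (SE 0.07, adjusted p = 0.882). TYK2, the kinase bound to IFNAR1, rose from 54.0, 82.4 and 110 CPM in NT to 157, 159 and 149 CPM with sh#16 and 193, 206 and 209 CPM with sh#87, by 1.12 on the log2 scale (SE 0.21, adjusted p = 0.00076). The 3 NT libraries spanned more than the libraries of either shRNA, and the knockdown libraries were above them. Without NT replicate 1 the log2 fold change of TYK2 was 0.88, and after each library's trend on the length and GC content of genes was removed it was 0.46, both under the 2-fold threshold. JAK2, a kinase of the interferon-gamma receptor, was at 49.0, 44 and 40.2 CPM in NT, 25.8, 26.7 and 25.6 CPM with sh#16 and 28.8, 30.2 and 31.1 CPM with sh#87. The knockdown libraries were all lower, with a log2 fold change of -0.66 that did not reach the 2-fold threshold (SE 0.10, adjusted p = 0.00019).

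STAT2, the activating subunit of ISGF3, was at 46.3, 56.8 and 55.2 CPM in NT, 102, 104 and 102 CPM with sh#16 and 147, 162 and 163 CPM with sh#87. The 3 groups did not overlap, and STAT2 rose by 1.302 on the log2 scale (SE 0.20, adjusted p = 0.000177). IRF9, the DNA-binding subunit of the same complex, was at 9.72, 10.7 and 12.1 CPM in NT, 5.62, 5.38 and 4.22 CPM with sh#16 and 3.99, 4.16 and 5.29 CPM with sh#87. All knockdown libraries were below NT, those of the shRNAs overlapped, and IRF9 had a log2 fold change of -1.18 (SE 0.15, adjusted p = 6.31e-05). The STAT2 and IRF9 counts thus moved in opposite directions, and the log2 ratio of STAT2 to IRF9 counts went from 2.28 ± 0.11 (SD, n = 3) in NT to 4.74 ± 0.47 (SD, n = 6) in knockdown libraries. This pair was chosen after its values were seen, and its ratio restates the separate calls. Its permutation test is therefore not given, though it was counted in the adjustment over 16 pairs.

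IRF1 and IRF7, the factors that amplify interferon responses, were not called. IRF1 was between 26.6 and 33.7 CPM in all libraries. The IRF7 level was 2.32, 3.73 and 10.2 CPM in NT replicates 1, 2 and 3 and between 5.45 and 8.30 CPM in the knockdown libraries. Its order in NT was the reverse of that of the mitochondrial share, and its log2 fold change was 0.31 (SE 0.39, adjusted p = 0.491). The IRF7 value rested on NT replicate 3. Without that library it was 1.14 and was called higher (edgeR adjusted p = 0.00326), and with it as the only NT library it was -0.59 (adjusted p = 0.09). Among the other IRF genes tested, IRF2 and IRF5 fell, with log2 fold changes of -1.51 and -2.22, and the third, IRF3, did not pass the 2-fold threshold.

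**Figure D3:**
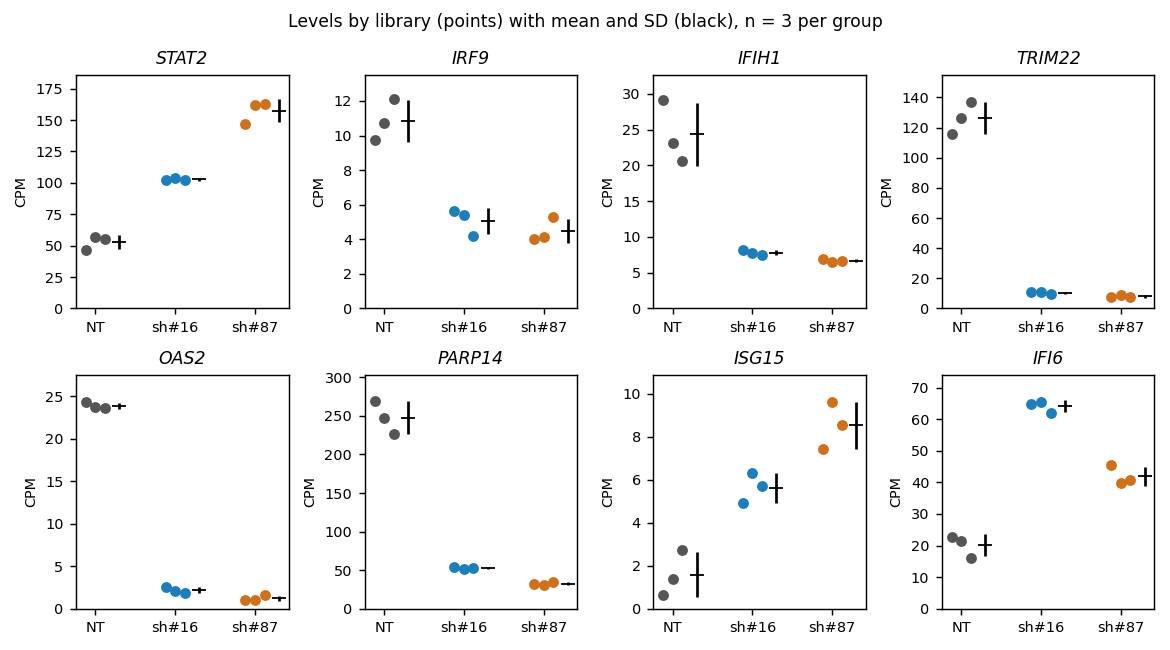
Levels in CPM of STAT2, IRF9, IFIH1, TRIM22, OAS2, PARP14, ISG15 and IFI6, with 1 point per library and the mean and SD of each group of 3 in black, on linear axes that start at 0. STAT2, ISG15 and IFI6 were higher and IRF9, IFIH1, TRIM22, OAS2 and PARP14 lower in all knockdown libraries.

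IFIH1, EIF2AK2 and DHX58 were listed together as sensors of RNA. Of these 3 genes, 2 were called lower, where 17.1% of all genes were. IFIH1, which encodes MDA5, was at 29.2, 23.2 and 20.6 CPM in NT, 8.23, 7.78 and 7.45 CPM with sh#16 and 6.86, 6.52 and 6.66 CPM with sh#87. Each group was separate from the others, and IFIH1 was left at 29.9% of NT (log2 fold change -1.74, SE 0.13, adjusted p = 1.42e-06). EIF2AK2, which encodes PKR, the kinase that stops translation on binding double-stranded RNA, was at 337, 293 and 215 CPM in NT, 93.5, 88.0 and 91.5 CPM with sh#16 and 60.1, 54.4 and 60.0 CPM with sh#87. Even the lowest NT library was above every knockdown library, and EIF2AK2 was left at 26.5% (log2 fold change -1.92, SE 0.20, adjusted p = 1.55e-05). DHX58, which encodes LGP2, a regulator of MDA5, had a log2 fold change of -0.71, under the 2-fold threshold, and was called lower with the length and GC correction (-1.14, adjusted p = 3.29e-06).

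Of 11 genes tested on a second list of sensors of nucleic acids and their adaptors, 4 were called lower and 0 higher by edgeR, where 17.1% of all genes were lower and 21.0% higher, and no higher gene had an unadjusted p under 0.05. They were DDX58, which encodes RIG-I (log2 fold change -1.44), CGAS, which encodes the sensor of cytosolic DNA (-2.43), TLR3, the endosomal receptor of double-stranded RNA (-3.80), and MYD88, the adaptor of most Toll-like receptors (-1.64). TLR3 had 0 to 0.274 CPM in the knockdown libraries, near the limit of detection, and its log2 fold change was -4.41 without sh#16 replicate 3. The STING1 and MAVS genes, whose products are the adaptors of cGAS and RIG-I, were not called.

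The OAS family, enzymes that make 2′-5′ oligoadenylate from double-stranded RNA to activate RNase L, split in both direction and size. OAS2 was at 24.3, 23.7 and 23.5 CPM in NT, 2.57, 2.07 and 1.86 CPM with sh#16 and 1.04, 1.07 and 1.58 CPM with sh#87. The NT libraries were close to each other, and OAS2 was left at 7.20% of their level (log2 fold change -3.80, SE 0.24, adjusted p = 5.04e-07). OAS1 was at 18.0, 17.3 and 19.8 CPM in NT, 9.63, 11.3 and 11.0 CPM with sh#16 and 5.61, 6.30 and 7.02 CPM with sh#87, a log2 fold change of -1.11 (SE 0.22, adjusted p = 0.00104). OAS3 was at 126, 126 and 130 CPM in NT, 67.6, 71.1 and 69.1 CPM with sh#16 and 44.6, 47.6 and 46.8 CPM with sh#87, a log2 fold change of -1.14 (SE 0.16, adjusted p = 0.000123). For both, the 3 groups did not overlap, and 46.2% and 45.5% of the NT level was left. OASL, a relative with no synthetase activity that promotes RIG-I signaling, rose from 0.0860, 0.303 and 0.167 CPM in NT to 0.522, 0.692 and 0.603 CPM with sh#16 and 0.665, 1.12 and 0.813 CPM with sh#87. Its knockdown libraries were all above NT, and those of the shRNAs overlapped (log2 fold change 1.97, SE 0.41, adjusted p = 0.00143). OASL stood at 2 to 7 counts per NT library, so its fold change rests on few counts.

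OAS1, OAS3 and OAS2 lie in that order on chromosome 12, with 5255 bases between OAS1 and OAS3 and 5268 between OAS3 and OAS2 (GRCh38.p14). The log2 ratio of OAS1 to OAS3 counts was -2.79 in NT and -2.79 in knockdown libraries, a difference within the spread (exact permutation test, p = 0.976). OAS3 against OAS2 moved by 2.704, and OAS1 against OAS2 by 2.705 (exact permutation tests, each p = 0.0119, adjusted p = 0.0212 over 16 pairs). No NT library overlapped with a knockdown library in these 2 ratios.

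The IFIT genes, whose products bind viral RNA that lacks the methylation marks of host mRNA, also differed from gene to gene. IFIT2 was at 6.58, 5.29 and 4.90 CPM in NT, 1.20, 0.865 and 1.04 CPM with sh#16 and 0.748, 0.760 and 0.610 CPM with sh#87. Its groups did not overlap, and IFIT2 was left at 15.7% (log2 fold change -2.67, SE 0.22, adjusted p = 2.62e-06). IFIT3 was at 11.1, 10.7 and 9.17 CPM in NT, 3.77, 2.94 and 3.56 CPM with sh#16 and 1.75, 1.39 and 1.73 CPM with sh#87. It was lower with both shRNAs (log2 fold change -2.03, SE 0.30, adjusted p = 0.000139) and lower again with sh#87 than with sh#16. IFIT1 ran from 2.40 to 2.92 CPM in NT and from 1.53 to 3.12 CPM in knockdown libraries, with a log2 fold change of -0.29 (SE 0.24, adjusted p = 0.289). IFIT5 was under 1 CPM in all libraries and was called lower with sh#87, at -1.74 (SE 0.41, adjusted p = 0.00341).

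The 4 IFIT genes lie within 1 cluster on chromosome 10. IFIT2 against IFIT1 moved by -2.35 on the log2 scale and IFIT3 against IFIT1 by -1.80 (exact permutation tests, each p = 0.0119, adjusted p = 0.0212). The RefSeq locus of LIPA overlaps all 4 IFIT loci, and whether reads were counted by strand is not given in the sources used here. LIPA had 17092 counts over the 9 libraries, and the 4 IFIT genes had 558 (IFIT2), 1183 (IFIT3), 558 (IFIT1) and 83 (IFIT5).

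Among the other antiviral effectors, 8 were tested, of which 3 fell and 1 rose, where 17.1% of all genes were called lower and 21.0% higher. TRIM22, an E3 ubiquitin ligase that restricts retroviruses, was at 116, 127 and 137 CPM in NT, 10.8, 10.6 and 9.37 CPM with sh#16 and 7.32, 8.71 and 7.78 CPM with sh#87. It was left at 7.21% of the NT level (log2 fold change -3.79, SE 0.13, adjusted p = 2.20e-08). SAMD9 was at 150, 125 and 87.9 CPM in NT, 51.2, 49.1 and 53.4 CPM with sh#16 and 33.7, 32.1 and 38.4 CPM with sh#87, a log2 fold change of -1.49 (SE 0.20, adjusted p = 7.87e-05). SAMD9L, its neighbour on chromosome 7, was at 18.1, 16.7 and 11.9 CPM in NT, 7.02, 6.96 and 7.72 CPM with sh#16 and 4.41, 5.90 and 4.02 CPM with sh#87, a log2 fold change of -1.37 (SE 0.22, adjusted p = 0.000259). Both genes are myeloid growth restrictors that inhibit translation, NT replicate 3 was the lowest NT library for each, and their ratio did not differ beyond the spread (-0.10, exact permutation test, p = 0.548).

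ISG20, an exonuclease that degrades RNA, rose from 0.172, 0.260 and 0.133 CPM in NT to 0.562, 0.735 and 0.712 CPM with sh#16 and 0.915, 0.894 and 0.763 CPM with sh#87. The 3 groups did not overlap, at 4 to 6 counts per NT library (log2 fold change 2.01, SE 0.32, adjusted p = 0.000225). BST2, which encodes tetherin and holds budding virions at the cell surface, was higher with sh#16 by 0.78 on the log2 scale and by 0.19 with sh#87, and was not called. RSAD2, which encodes viperin, and CMPK2, the kinase that supplies its substrate, each had a log2 fold change of -0.60, with adjusted p of 0.00131 and 0.00553, under the 2-fold threshold. They overlap on chromosome 2, and the ratio of CMPK2 to RSAD2 counts did not differ beyond the spread (-0.02, exact permutation test, p = 0.929). MX1, a dynamin-like GTPase that traps viral nucleocapsids, was between 0.602 and 0.801 CPM in NT and between 0 and 0.383 CPM in the knockdown libraries, with an adjusted p of 0.0166 for both shRNAs.

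ISG15, the ubiquitin-like protein that is conjugated to others, rose, while USP18, the protease that removes it, and HERC6 fell. The ISG15 level went from 0.645, 1.39 and 2.74 CPM in NT to 4.90, 6.29 and 5.70 CPM with sh#16 and 7.44, 9.61 and 8.54 CPM with sh#87. NT replicate 3, with the lowest mitochondrial share in NT, was the highest NT library, and the groups did not overlap (log2 fold change 2.13, SE 0.40, adjusted p = 0.000753). The ISG15 value was 1.75 without NT replicate 1 and 1.45 with the length and GC correction, and was still called higher in both. The size of the change also depended on NT replicate 3. Without that library the log2 fold change of ISG15 was 2.78, and with it as the only NT library it was 1.38 and the call was lost (edgeR adjusted p = 0.0223). HERC6, a relative of the human ISG15 ligase HERC5, was at 9.76, 10.8 and 9.97 CPM in NT, 3.93, 4.56 and 4.82 CPM with sh#16 and 3.08, 3.66 and 2.39 CPM with sh#87, a log2 fold change of -1.44 (SE 0.20, adjusted p = 9.97e-05). USP18, which also inhibits signaling at IFNAR2, was at 3.83, 3.73 and 4.70 CPM in NT, 1.52, 1.38 and 0.876 CPM with sh#16 and 0.665, 0.581 and 0.407 CPM with sh#87. The 3 groups of USP18 did not overlap, and it was left at 22.8% (log2 fold change -2.13, SE 0.35, adjusted p = 0.0003). USP18 has a near-identical copy, USP41, and reads of the pair can be split between them.

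The PARP9, DTX3L and PARP14 genes lie on chromosome 3, and their products, ADP-ribosyltransferases and an E3 ligase that binds PARP9, take part in interferon signaling and the DNA damage response. All 3 fell. PARP14 was at 269, 247 and 226 CPM in NT, 54.3, 51.5 and 53.4 CPM with sh#16 and 31.8, 31.1 and 34.3 CPM with sh#87, left at 17.3% (log2 fold change -2.53, SE 0.20, adjusted p = 1.93e-06). DTX3L was at 124, 105 and 97.2 CPM in NT, 29.3, 27.9 and 28.0 CPM with sh#16 and 14.8, 16.4 and 15.8 CPM with sh#87, left at 20.3% (log2 fold change -2.30, SE 0.23, adjusted p = 1.18e-05). PARP9 was at 40.7, 38.7 and 32.5 CPM in NT, 17.3, 15.3 and 15.9 CPM with sh#16 and 10.3, 10.5 and 10.7 CPM with sh#87, left at 35.8% (log2 fold change -1.48, SE 0.18, adjusted p = 4.68e-05). In each of them the sh#87 libraries lay below the sh#16 libraries, and both lay below NT.

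PARP9 and DTX3L share the promoter window printed above, yet they fell by unequal amounts. The log2 ratio of PARP9 to DTX3L counts went from -1.54 ± 0.09 (SD, n = 3) in NT to -0.70 ± 0.14 (SD, n = 6) in the knockdown libraries, and that of PARP9 to PARP14 moved by 1.06 (exact permutation tests, each p = 0.0119, adjusted p = 0.0212). The ratio of DTX3L to PARP14 moved by 0.22 (exact permutation test, p = 0.0357, adjusted p = 0.0519). PARP9 and DTX3L overlap by 447 bases at their starts, and a count that ignored strand could not tell reads of that stretch apart.

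**Figure D4:**
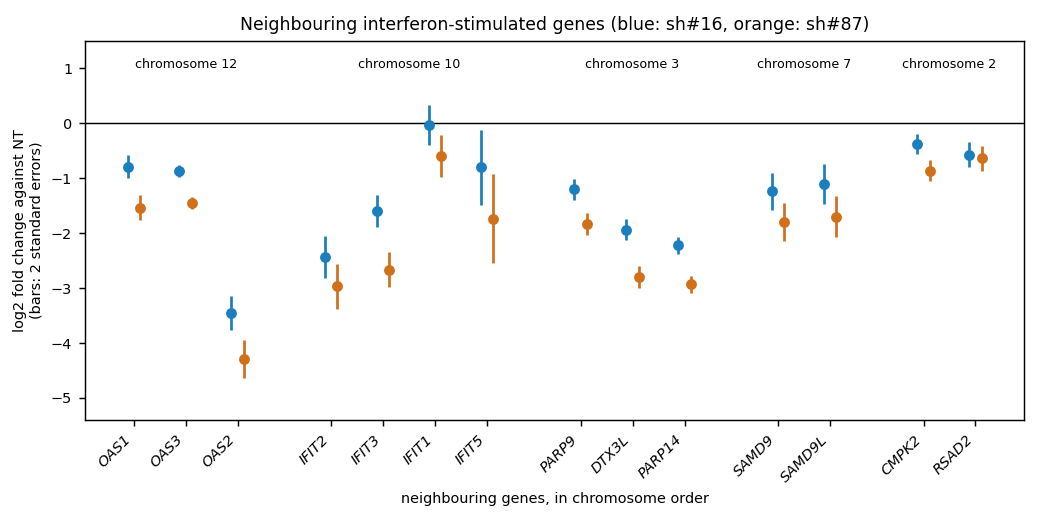
Log2 fold changes against NT of interferon-stimulated genes that neighbour each other, in chromosome order, with sh#16 in blue, sh#87 in orange and bars of 2 standard errors. OAS2 lies far below OAS1 and OAS3, and IFIT2 and IFIT3 lie below IFIT1, while SAMD9 and SAMD9L lie at similar values.

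The IFI genes are named for their induction by interferon. IFI16, which encodes a nuclear DNA sensor, was at 454, 410 and 308 CPM in NT, 103, 100 and 95.9 CPM with sh#16 and 57.8, 54.4 and 58.4 CPM with sh#87. It was left at 20.1% of NT (log2 fold change -2.32, SE 0.23, adjusted p = 1.13e-05). IFI44 was at 21.0, 17.9 and 16.1 CPM in NT, 7.26, 5.64 and 5.75 CPM with sh#16 and 4.16, 3.49 and 4.32 CPM with sh#87, a log2 fold change of -1.84 (SE 0.21, adjusted p = 2.34e-05). IFI35 was at 6.02, 8.93 and 12.2 CPM in NT, 5.06, 4.37 and 4.49 CPM with sh#16 and 1.996, 2.06 and 2.54 CPM with sh#87. NT replicate 1 of IFI35 was close to the sh#16 libraries, and the pooled log2 fold change was -1.40 (SE 0.33, adjusted p = 0.00332). The call of IFI35 was lost without NT replicate 2 (adjusted p = 0.0119) or NT replicate 3 (adjusted p = 0.0187). IFI44L, the neighbour of IFI44 on chromosome 1, had 17 to 19 counts in each NT library (0.817, 0.737 and 0.567 CPM) and 0 counts in all 6 knockdown libraries. Against a limit of detection of 3 counts in the shallowest knockdown library, 0.164 CPM, it was at least 4.30-fold lower (edgeR adjusted p = 0.000167).

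IFI6, a mitochondrial and endoplasmic reticulum protein that opposes apoptosis, rose from 22.7, 21.3 and 16.2 CPM in NT to 64.9, 65.6 and 62.0 CPM with sh#16 and 45.4, 39.8 and 40.8 CPM with sh#87. The log2 fold change was 1.40 (SE 0.21, adjusted p = 0.000178), and it was the one gene of the 5 that rose whose sh#16 libraries were above the sh#87 libraries. GBP2, a guanylate-binding protein, was at 10.4 to 18.8 CPM in NT and 15.9 to 21.0 CPM in the knockdown libraries and was not called.

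For 19 of the 20 genes that fell and 4 of the 5 that rose, the fold change against NT was larger with sh#87 than with sh#16. The exceptions were IFI44L, at 0 counts with both shRNAs, and IFI6. The share of all genes with a larger change was not counted. Over all genes tested, 19.9% were called lower and 23.9% higher with sh#87, against 15.5% and 18.5% with sh#16. OASL, ISG20 and ISG15 did not differ between shRNAs in a direct test (edgeR adjusted p = 0.27, 0.32 and 0.21). The shRNAs themselves were then compared with each other, a comparison that does not use the NT level. With both thresholds, 2 genes were called lower with sh#87 than with sh#16, against 1.55% of all genes. IFIT3 had a log2 difference of -1.07 (SE 0.16, adjusted p = 0.00166) and USP18 of -1.20 (SE 0.27, adjusted p = 0.00986). The IFIT3 call was lost without sh#16 replicate 1 (-0.99) or sh#87 replicate 2 (-0.97), where the difference came under the fold threshold. The USP18 call was lost without any one knockdown library but sh#16 replicate 3, and without NT replicate 2, at adjusted p of 0.0168 to 0.0424 (edgeR). IFI35 differed by -1.08 (SE 0.25, adjusted p = 0.0114), just short of a call, and was called lower with sh#87 by DESeq2 (adjusted p = 0.000764) and without NT replicate 1 or NT replicate 3. OAS2 was called without sh#87 replicate 3 (-1.04). By edgeR 0 genes were called higher, against 2.72% of all genes, with 1 at an unadjusted p under 0.05 (STAT2), and DESeq2 and limma-voom also called 0. Without a fold threshold, 12 genes were lower, against 9.42% of all genes, and 1 was higher, against 8.29%. The sh#87 libraries lay below the sh#16 libraries without overlap for 24 of the 35 genes, against 34.3% of all genes, and above them for 5, against 31.1%. MECOM itself was lower with sh#87, by -0.43 (SE 0.09, adjusted p = 0.00661), which did not reach the fold threshold. At a 4-fold change, 0 of the 35 genes differed between shRNAs in either direction by edgeR (0.166% of all genes were lower and 0.288% higher).

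Negative regulators of interferon signaling were also counted. Of 7 tested, 2 fell and 0 rose by edgeR. With 17.1% of all genes called lower and 21.0% higher, these counts do not set the list apart. PTPN1 was higher in all knockdown libraries, by 0.79 on the log2 scale (SE 0.10, edgeR adjusted p = 4.76e-05), under the 2-fold threshold. PTPN11 and PIAS1 were lower, at -0.67 and -0.35, also under it. SOCS3 was at 0.60, with an unadjusted p under 0.05 (adjusted p = 0.0429), and its groups overlapped. PTPN6, which encodes the phosphatase SHP-1, had a log2 fold change of -2.09 (SE 0.18, adjusted p = 4.63e-06), and PTPN2, a phosphatase of JAK1, had one of -1.17 (SE 0.14, adjusted p = 3.99e-05). PTPN2 was at -0.80 with the length and GC correction and at -0.78 with NT replicate 3 as the only NT library, under the 2-fold threshold. SOCS1, the induced inhibitor of JAK kinases, was not called.

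**Figure D5:**
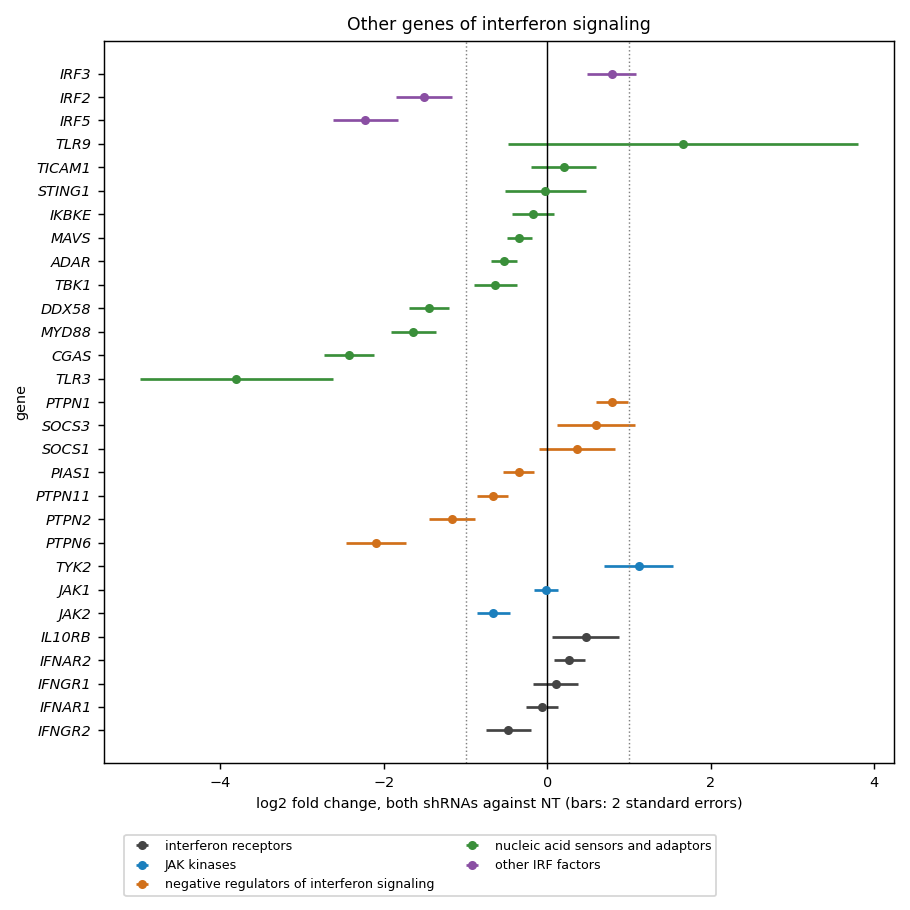
Log2 fold change with both shRNAs against NT of other genes of interferon signaling, colored by role, with bars of 2 standard errors and dotted lines at a 2-fold change. The receptors lie between -0.47 and 0.47, TYK2 and, with a wide error and no call, TLR9 lie above 1, and PTPN6, PTPN2, DDX58, MYD88, CGAS, TLR3, IRF2 and IRF5 lie below -1.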

How the data were processed

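RNA of HNT34 cells with NT, sh#16 or sh#87 was sequenced in 3 libraries per group, after polyA selection with a strand-specific kit. The authors deposited 1 table of estimated counts per gene symbol, not normalized. Its header names salmon output, while the methods name STAR with gene counts on GRCh38, and the rule by which its genes were kept is not given in the sources used here. Header names sit 1 field before their values, and were taken in order for the 9 columns of counts. All values were whole, so none was rounded.

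The 35 genes, the lists of pathway genes and markers and the tests were chosen with earlier results of these data known. Counts were normalized by TMM, filtered with filterByExpr and tested with the quasi-likelihood test of edgeR 4.0.16 in R 4.3.3, with Benjamini-Hochberg adjustment over 16312 genes. Both shRNAs against NT used a fit of 2 groups, and single shRNAs a fit of 3 groups. The study's 4-fold threshold was an alternative, as were DESeq2 1.42.0, limma-voom (limma 3.58.1), other normalizations and filters, a replicate block and each library left out. Values per library are given for genes called with both shRNAs or between shRNAs, MECOM, IFNAR1, IFNAR2, JAK1, JAK2 and TYK2. Other pathway genes are given values where they were called. IRF3, STING1, MAVS and SOCS1 were named, and PTPN1, PTPN11, PIAS1 and SOCS3 given values, after their values were seen. Some genes of these lists are not reported here.

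Ratios of counts (pseudocount 0.5) were taken for 16 pairs, those of listed genes within 250000 bases and STAT2 with IRF9, chosen after the values were seen, and tested by exact two-sided permutation over 84 splits. The depth was 17096170 to 43502389 counts. The limit of detection, 3 counts in a library, covers counting error alone. No pair of replicates agreed within sampling noise (chi-square per degree of freedom 2.38 to 290). In counts simulated for both shRNAs against NT (16025 genes tested), 196 of 200 genes with a 4-fold change were called, with 3 false calls. The changed genes were drawn from those with higher counts. Both shRNAs were given the same levels, and no shift between NT libraries was simulated. These rates therefore do not cover genes with few counts, such as OASL and ISG20, changes near 2-fold, or the differences between NT libraries. Motifs were searched with Python 3.11.15.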

Additional observations from a re-analysis of the deposited data

Results flagged for a closer look

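The depth of sh#16 replicate 2, at 43502389 counts, stood apart from the other 5 knockdown libraries by 0.773 of their range, above Dixon's critical value for 6 libraries. It was the only one of 37 measures tested that did so. Chance alone flags about 1 in 20 where the 6 libraries belong to the same group. Here the libraries of both shRNAs were pooled, and a difference between the shRNAs widens the range and can hide an outlying library. Without this library, 4 genes higher with sh#16 became 2, with ISG15 and OASL lost.

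In 13 genes sh#87 and sh#16 differed in a direct test between their libraries with no fold threshold, 12 lower with sh#87, where 9.42% of all genes were, and 1 higher, where 8.29% of all genes were, with the log2 difference (sh#87 minus sh#16) and edgeR adjusted p given for each. STAT2 was higher with sh#87, by 0.61 (adjusted p = 0.00096). IFI6, which rose with both, was less raised with sh#87, by -0.61 (adjusted p = 0.00505). Larger falls with sh#87 were found for USP18 at -1.20 (adjusted p = 0.00986), IFIT3 at -1.07 (adjusted p = 0.00166) and DTX3L at -0.86 (adjusted p = 0.000406). OAS2 differed by -0.83 (adjusted p = 0.00852), OAS1 by -0.75 (adjusted p = 0.00157) and OAS3 by -0.58 (adjusted p = 0.000223). IFI16 differed by -0.81 (adjusted p = 0.00178), PARP14 by -0.71 (adjusted p = 0.000338) and PARP9 by -0.62 (adjusted p = 0.00219). EIF2AK2 differed by -0.64 (adjusted p = 0.00845) and CMPK2 by -0.48 (adjusted p = 0.0054). In each of these genes the 3 libraries of one shRNA did not overlap with those of the other.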

How the results depend on the processing

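Of the 25 genes called with both shRNAs, 16 were called in every alternative in which they were tested other than the fold thresholds, and 0 reversed direction. The other 9 lost the call with NT replicate 3 as the only NT library (STAT2, OAS1, OASL, IFIT3, SAMD9, SAMD9L, ISG15, IFI35 and IFI44L, adjusted p 0.0118 to 0.0346), and IFI35 also elsewhere. Upper-quartile normalization moved the median over all genes tested from 0.05 to 0.16 (log2).
At a 4-fold threshold the counts were 2 higher and 9 lower with both shRNAs, 0 and 5 with sh#16, 3 and 13 with sh#87, and 0 lower between shRNAs. With NT replicate 3 as the only NT library, a fit that assumes it varies like the other groups, calls also became fewer over all genes tested. The genes that lost the call there had log2 fold changes of 1.25 (STAT2), 2.11 (OASL), 1.38 (ISG15), -1.22 (OAS1), -1.85 (IFIT3), -1.03 (SAMD9), -0.98 (SAMD9L) and -1.83 (IFI35). IFI44L was at 0 counts in the knockdown libraries. Genes lower with sh#87 than with sh#16 numbered 1, with USP18 lost, under upper-quartile normalization, limma-voom, a mean of at least 10 counts and the replicate block (1.10% to 1.52% of all genes). They numbered 12 without a fold threshold (9.42% of all genes), where 1 was higher (8.29%).
The libraries left out in turn gave 5 to 6 genes higher and 19 to 21 lower with both shRNAs, 2 to 4 and 16 to 18 with sh#16 (2 without sh#16 replicate 2), 4 to 5 and 21 to 22 with sh#87, and 0 to 3 lower between shRNAs (0 without sh#16 replicate 1 or sh#87 replicate 2, and 1 without NT replicate 2, sh#16 replicate 2 or sh#87 replicate 1). Of all genes tested, the same fits called 17.3% to 21.3% higher and 15.9% to 18.4% lower with both shRNAs. With sh#16 these shares were 16.5% to 20.8% and 14.5% to 17.5%, and with sh#87 22.3% to 26.0% and 18.6% to 21.3%. Between shRNAs 0.878% to 1.87% were lower.
With the length and GC correction DHX58 was called lower with both shRNAs (-1.14) and with each (-1.05 and -1.25), and OAS3 (-1.09) and IFI35 (-1.39) with sh#16. The same correction lost the sh#16 calls of SAMD9 (-0.87), SAMD9L (-0.81) and PARP9 (-0.98), the sh#87 calls of IFI6 (0.76) and IFIT5 (-1.27, adjusted p = 0.0136) and that of IFIT3 between shRNAs (-0.95). Upper-quartile normalization lost the sh#16 call of IRF9 (-0.98) and added STAT2 (1.07). Without NT replicate 3, IRF7 was called higher with both shRNAs (1.14) and with sh#16 (1.37).
The replicate block gave 5 higher (19.8% of all genes) and 19 lower (16.4%) with both shRNAs, with IFI35 lost, but numbers do not pair the libraries (correlations of deviations between -0.223 and 0.111).
Values that changed sign belonged to genes not called in the reported comparison. Over the libraries left out in turn, the log2 fold change with both shRNAs ran from -0.050 to 0.11 for IRF1, from -0.065 to 1.14 for IRF7 and from -0.061 to 0.019 for JAK1. With sh#16 it ran from -0.16 to 0.00022 for IRF1, from -0.16 to 0.053 for IFIT1 and from -0.021 to 0.42 for GBP2, with sh#87 from -0.35 to 0.87 for IRF7, and between shRNAs from -0.14 to 0.0025 for RSAD2. With NT replicate 3 alone, both shRNAs gave -0.16 (IRF1), -0.59 (IRF7) and 0.049 (JAK1), sh#16 gave -0.36 (IRF7) and 0.14 (IFIT1), and sh#87 gave -0.058 (IRF1), -0.86 (IRF7) and -0.013 (BST2). The length and GC correction, with values for 84.4% of genes, gave -0.074 (IRF1), -0.49 (IRF7), 0.012 (IFIT1), 0.20 (IFNAR1) and 0.16 (JAK1) with both shRNAs, -0.27 (IRF7) and 0.22 (IFIT1) with sh#16, -0.84 (IRF7) and -0.13 (BST2) with sh#87 and 0.062 (RSAD2) between shRNAs. Upper-quartile normalization gave 0.045 (IFNAR1) and 0.098 (JAK1) with both shRNAs and 0.024 (IRF1) and 0.066 (IFIT1) with sh#16. The cause of these changes was not tested.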
